A study of Homo sapiens with 15 samples.

Results

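The exons described here are internal exons that HEK-293 cells without added GEMIN5 almost always skip. They were chosen from the deposited splicing table as exon events of at least 28 bases, with at least 10 reads in all 15 libraries and a mean percent spliced in (PSI) below 5 over the 8 control libraries. PSI is the percent of the informative junction reads that support inclusion of the exon. The rule found 3588 exons among the 23726 exons that passed the same length and read minimum, of which 2465 had a mean control PSI of 5 to 95 (called alternative here) and 17673 a mean above 95 (nearly constitutive). The table holds 223565 exon events in all, of which 219502 have at least 28 bases, among 721551 splicing events of every type.

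HEK-293 is an established human embryonic kidney line. Polyadenylated RNA was sequenced from cytoplasmic lysates (Input) and from pooled polysome fractions 8 to 12 of 12 sucrose gradient fractions. Control cells were untreated and not transfected, and they gave the groups Input control (n = 4) and Polysome control (n = 4). GEMIN5 cells carried the plasmid pcDNA3Xpress-Gemin5, introduced with a lipid reagent and left for 24 hours, and they gave the groups Input GEMIN5 (n = 3) and Polysome GEMIN5 (n = 4). A group with an empty plasmid was not analysed here, so a difference between GEMIN5 and control cells cannot be told apart from one due to transfection. All cells were treated with cycloheximide, which halts ribosomes on the mRNA, before lysis. The lysates were cleared by centrifugation and are cytoplasmic by their labels. The labels call the samples independent but do not say how cultures were separated, so p-values measure only the spread between these samples.

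An internal exon is joined to its neighbours when the spliceosome recognises the splice sites on both of its sides, and an exon with weak or unused sites is skipped together with the surrounding intron. Many exons that are skipped in most transcripts carry a stop codon in the reading frame of the upstream exon or shift that frame. Such poison exons make the mRNA a target of nonsense-mediated decay (NMD), which depends on translation, and several splicing factor genes are known to limit their own output through them. GEMIN5 is an RNA-binding protein of the SMN complex, which assembles the small nuclear ribonucleoproteins of the spliceosome, and it is also known to bind ribosomes.

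The stretches printed next show how such exons end a reading frame. Each is read 5′ to 3′ on the strand of the gene from the first base of the exon, taken from GENCODE v29 transcripts (GRCh38, also named hg38), and the capitals mark the first stop codon in the frame of the upstream coding exon. The positions given are those of the whole exon. The exons of SNRPB (a core Sm protein of the spliceosome, 124 bases, chr20:2467192-2467315, minus strand), MRPL37 (a mitochondrial ribosomal protein, 145 bases, chr1:54207360-54207504, plus strand) and TRNAU1AP (a selenocysteine tRNA-associated protein, 148 bases, chr1:28561113-28561260, plus strand) stand for the exons that were lower in polysomes than in Input of GEMIN5 cells.
SNRPB: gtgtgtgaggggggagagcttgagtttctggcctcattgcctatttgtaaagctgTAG
MRPL37: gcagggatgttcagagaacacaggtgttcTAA
TRNAU1AP: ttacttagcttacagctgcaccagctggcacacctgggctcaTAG
CMC2 (a mitochondrial protein, 204 bases, chr16:80991754-80991957, minus strand) is shown as the exon with a stop that was higher in polysomes. TRA2B (a splicing activator, 276 bases, chr3:185931577-185931852, minus strand) and MOB1A (a kinase activator of the Hippo pathway, 167 bases, chr2:74178115-74178281, minus strand) are shown as exons with a stop that did not pass the test.
CMC2: gattccgtccaggatacacattacactTAG
TRA2B: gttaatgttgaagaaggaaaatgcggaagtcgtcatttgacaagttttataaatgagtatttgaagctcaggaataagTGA
MOB1A: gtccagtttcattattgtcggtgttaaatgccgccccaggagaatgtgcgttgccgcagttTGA
The exon of LUC7L (a U1 small nuclear ribonucleoprotein-associated factor, 70 bases, chr16:228333-228402, minus strand) is printed whole, in lower case throughout, because no stop codon lies in its frame. Its length is not a multiple of 3.
LUC7L: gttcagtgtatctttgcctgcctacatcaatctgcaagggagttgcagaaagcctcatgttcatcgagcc
The TAG of SNRPB begins at base 56 of its exon and the TAA of MRPL37 at base 30. The stops of TRNAU1AP, CMC2, TRA2B and MOB1A begin at bases 43, 28, 79 and 62.

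The 3588 exons lie in 1981 host genes by symbol, and 2468 of them are in a gene with at least 2 such exons. None overlaps another, but 823 share both flanking exon ends with another one, so their skipping reads are the same reads. Of the 3588, 1478 (41.2%) match an exon of GENCODE v29 at both ends, against 79.6% of alternative and 92.7% of nearly constitutive exons. By the annotation, 290 (8.08%) are coding throughout in some transcript, 519 (14.5%) lie in transcripts annotated as NMD targets and in no protein-coding frame (the NMD class), 360 (10.0%) are in noncoding transcripts, 200 (5.57%) are in untranslated regions and 109 (3.04%) are partly coding. A further 400 (11.1%) share 1 or both splice sites with annotated exons but match none, and 1710 (47.7%) share neither. Coding exons made up 57.5% of the alternative and 85.6% of the nearly constitutive class, and NMD-class exons 4.87% and 0.787%.

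Most rarely included exons with a known reading frame carry a stop codon. The frame could be read for 801 of the rarely included exons, where the annotated coding parts ending at the upstream junction give a single frame, and 553 of these (69.0%, exact 95% interval 65.7 to 72.2, counting error only) hold an in-frame stop. The share was 10.3% (111 of 1073) in alternative and 2.50% (302 of 12091) in nearly constitutive exons. Stops were read only in exons that match the annotation at both ends. An exon annotated as coding throughout is unlikely to hold one, and NMD targets are annotated from an early stop. The annotation thus partly fixes the difference between the classes, and nothing is read from it. How often a noncoding stretch of such length holds a stop was not tested. The first stop lies at a median of 33 bases into the rarely included exons that have one (quartiles 13 and 60). A further 127 exons (15.9%) have no stop but a length that is not a multiple of 3, and 121 (15.1%) have neither. Lengths were close in the 3 classes: 35.9% of rarely included, 39.6% of alternative and 36.9% of nearly constitutive exons have a length divisible by 3, and the median lengths were 105, 109 and 110 bases. Median GC content was 50.5, 52.5 and 50.8% among exons with a sequence.

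**Figure D1:**
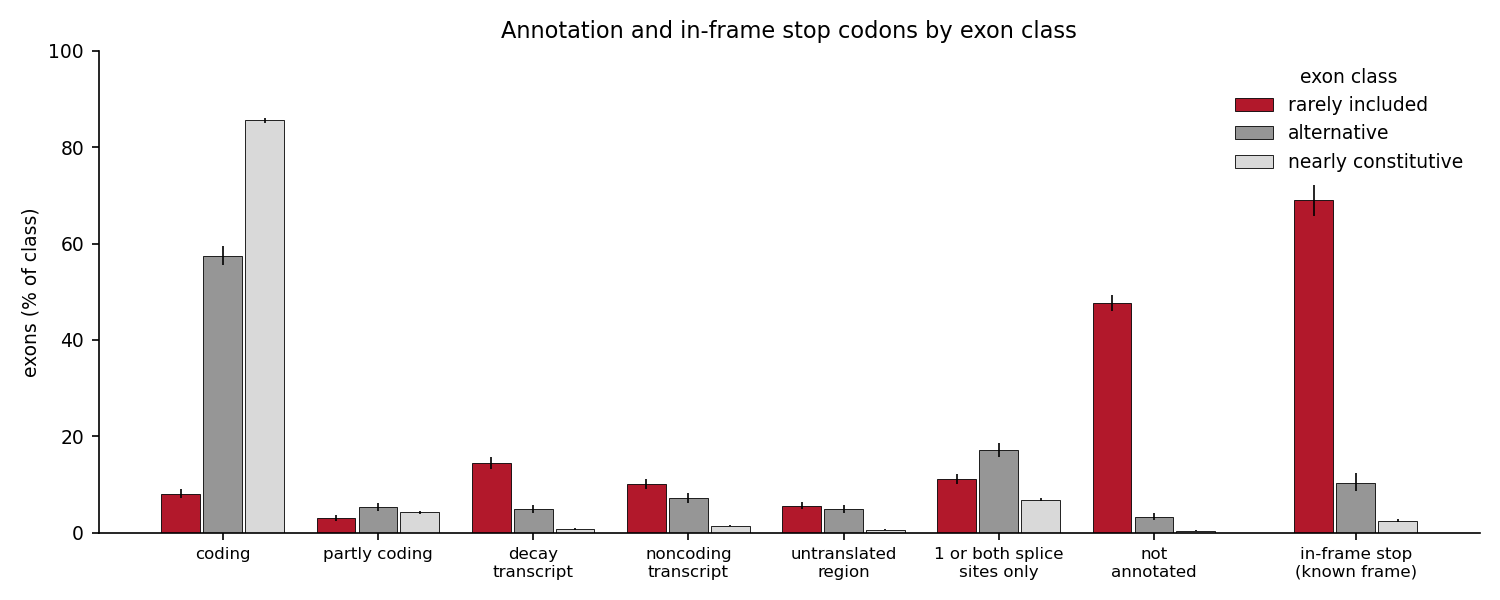
Percent of exons (vertical axis) in each annotation class, and percent with an in-frame stop among exons of known frame, for the 3588 rarely included, 2465 alternative and 17673 nearly constitutive exons, with exact 95% intervals as lines. Rarely included exons are coding in 8.08% and absent from the annotation in 47.7%, and 69.0% of those with a known frame hold a stop.

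Total gene counts were 11191417 to 18407933 per library. GEMIN5 itself had 161 to 258 counts in Input control and 9417 to 11848 in Input GEMIN5 libraries, and 66 to 139 and 11938 to 22005 in the polysome groups. The HEK-293 markers KRT8, KRT18, VIM and PAX2 summed to 4458 to 14127 counts per library, with 3 or 4 of the 4 detected. The 12 liver markers summed to 19 to 1610 counts in Input control and 1389 to 1917 in Polysome control, against 36 to 57 and 15 to 27 in the GEMIN5 groups, where 6 and 5 of the 12 were at 0 in every library. Input control was split: ALB had 0 counts in libraries 1 and 2, and 588 and 414 in libraries 3 and 4. The 6 blood markers summed to 86 to 134 counts in Polysome control and 19 to 24 in Polysome GEMIN5. Their sums were 22 to 41 in Input control and 22 to 51 in Input GEMIN5. None of the 3588 exons lies in 1 of the 12 liver marker genes, which does not cover other genes that such cells express. The part of other cells in the results was not tested. The Input GEMIN5 libraries stand apart: their TMM factors (edgeR's scaling for composition) were 0.354 to 0.488, against 0.971 to 1.03 in Input control. They also had a larger excess of reads at the 3′ over the 5′ exons of 1466 genes, with a median log2 ratio of 1.26 ± 0.0428 (SD, n = 3), against 0.468 ± 0.0096 in Input control, 0.690 ± 0.190 in Polysome control and 0.580 ± 0.108 in Polysome GEMIN5 (each n = 4). Their mean PSI over 18956 introns, a measure of unspliced RNA, was 2.79 to 2.82, above the 2.50 to 2.60 of the other 12 libraries. The part of these library differences in the results was not tested.

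Most of the chosen exons stayed close to 0 in the GEMIN5 libraries, whose PSI the rule did not use. The mean PSI remained below 5 for 3473 of 3588 exons in Input GEMIN5 and for 3542 in Polysome GEMIN5. No inclusion read was recorded in any library for 895 exons, 2310 had inclusion reads in some libraries and 383 in all 15. For the exons never seen included, a count of 0 over the 15 libraries allows a PSI of up to 0.297% at the median number of reads, 1011. The number of exons with a PSI of at least 5 was 122, 163 and 152 in the 3 Input GEMIN5 libraries and 66 to 91 in the 4 Polysome GEMIN5 libraries, and the control libraries, which chose the exons, had 52 to 81 in Input and 37 to 68 in polysomes. The 3 Input GEMIN5 libraries are thus above all other libraries. A mean PSI of at least 10 was reached by 17 exons in Input GEMIN5, and 2 of these reached 20, while 1 exon reached 10 in Polysome GEMIN5.

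Pooled over all 3588 exons, inclusion was 0.522% ± 0.0120 (SD, n = 3) in Input GEMIN5 and 0.446% ± 0.0228 (SD, n = 4) in Polysome GEMIN5. The same exons had 0.438% ± 0.0141 in Input control and 0.413% ± 0.0328 in Polysome control (each n = 4), which is a description of the libraries that chose them. The 3 Input GEMIN5 libraries did not overlap any other group, and the 4 Polysome GEMIN5 libraries overlapped both control groups. Alternative exons went the other way in Input GEMIN5: their pooled PSI was 67.2 there and 74.0, 74.2 and 74.0 in Input control, Polysome control and Polysome GEMIN5. Nearly constitutive exons had 99.3 in Input GEMIN5 and 99.6 in the other 3 groups. The reads behind each value also differed, with a median of 47 to 53 reads per rarely included exon in the Input GEMIN5 libraries and 76 to 109 in the others, and the part of depth in these counts was not tested.

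**Figure D2:**
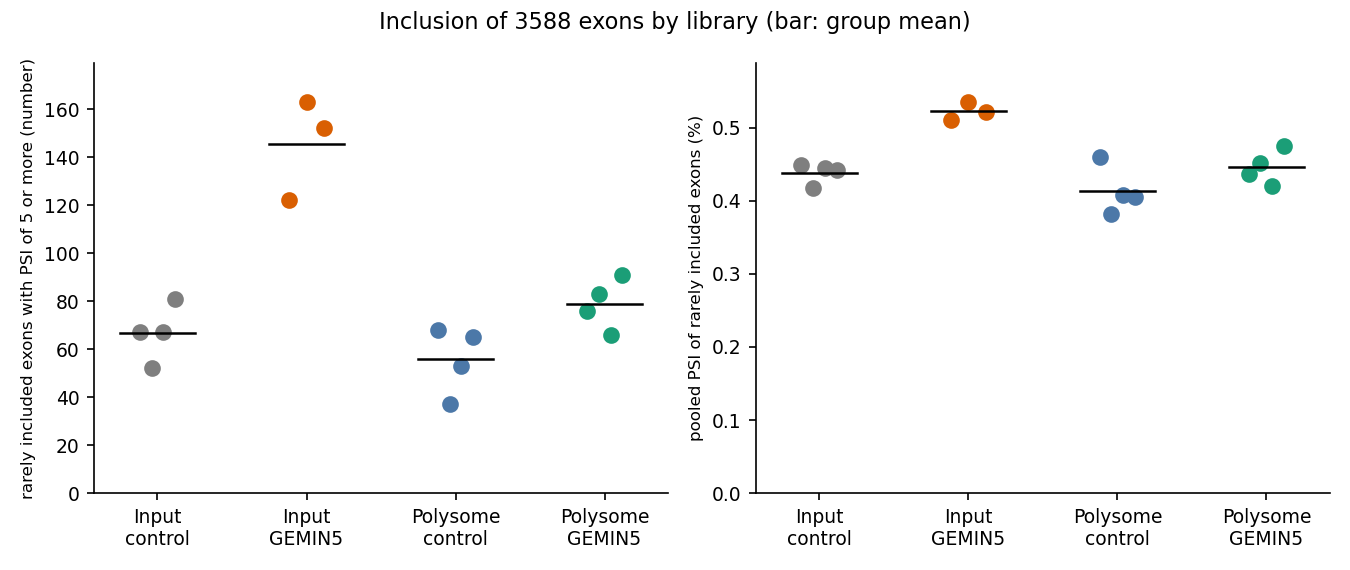
Number of the 3588 exons with a PSI of at least 5 (left) and their pooled PSI in percent (right), with 1 point per library and a bar for each group mean. The Input GEMIN5 libraries lie at 122 to 163 exons and around 0.522%, above every other library.

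Polysomes were compared with Input within GEMIN5 cells, the contrast whose PSI had no part in the choice of exons, although its 7 libraries counted towards the minimum of 10 reads. The choice still bears on it. It held the exons near the floor in the controls, and 0 events of any type were called between the polysome groups. Input GEMIN5 therefore had more room to lie above Polysome GEMIN5 than below, so nothing is read from the excess of lower exons. Events entered the test with at least 10 inclusion and 10 exclusion reads summed over the 15 libraries. That left 925 of the 3588 exons, while 2663 had too few inclusion reads, and 108 of the 925 reached the minimum only with the Input GEMIN5 reads, which favours exons that are high there. edgeR's quasi-likelihood test on inclusion and exclusion reads, adjusted by Benjamini-Hochberg over 17616 events of all types, called 32 of the 925 exons (3.46%) at an adjusted p under 0.05. The background was 4.65% of all events. Of the 32, 3 were higher in polysomes (0.324%, background 2.8%) and 29 were lower (3.14%, background 1.86%). Of the 29, 4 are among the 108 exons, those of POLR2C, TMEM237 and RHNO1 included. Without the 108, a choice made after the data were seen, 28 of 817 exons were called, 3 higher and 25 lower. At an unadjusted p under 0.05 there were 120 exons. The number called fell to 13 without the second Input GEMIN5 library and 14 without the third (backgrounds 2.27 and 2.33% of all events). It was 19 without the second Polysome GEMIN5 library and 21 without the third (backgrounds 3.11 and 2.83%). Of these calls, 12, 13, 18 and 20 were lower. Of the 32 calls, 13 were kept without each of the 7 GEMIN5 libraries in turn: those of SNRPB, SRSF2, SRSF7, RTF2, GNAS, GSTO1, HMOX1, MKNK2, MRPL23, PFDN2, POLR2C and both exons of HSF1. With plain junction reads in place of the corrected reads 82 of 923 exons were called, 10 higher and 72 lower. The background in that fit was 11.1%, and this alternative was chosen after the data were seen.

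The log2 ratio of inclusion odds (polysomes over Input) was below 0 for 561 of the 925 exons. Its median was -0.27, against 0.16 over all 17616 events, 0.43 over the alternative exons and 0.69 over the nearly constitutive exons tested. Control PSI placed the rarely included and the nearly constitutive exons at opposite ends, so nothing is read from the difference between their medians. With events that had no inclusion or no exclusion read in a group set to the bound that 3 reads over the group allow, the medians were -0.28 for the rarely included exons and 0.12 for all events. Without the 108 exons, 476 of 817 were below 0 and the median was -0.18. The Input and Polysome GEMIN5 ranges did not overlap in 30 of the 32 called exons, beside 17.1% of all events, and nothing is read from that count because the 32 were called on the difference between these groups. Among the 29 lower exons, the mean PSI in Input GEMIN5 was under 5 in 13 and at least 10 in 10. It was above both control means in 28 of the 29. Controls were used to choose the exons, so nothing is read from that count.

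**Figure D3:**
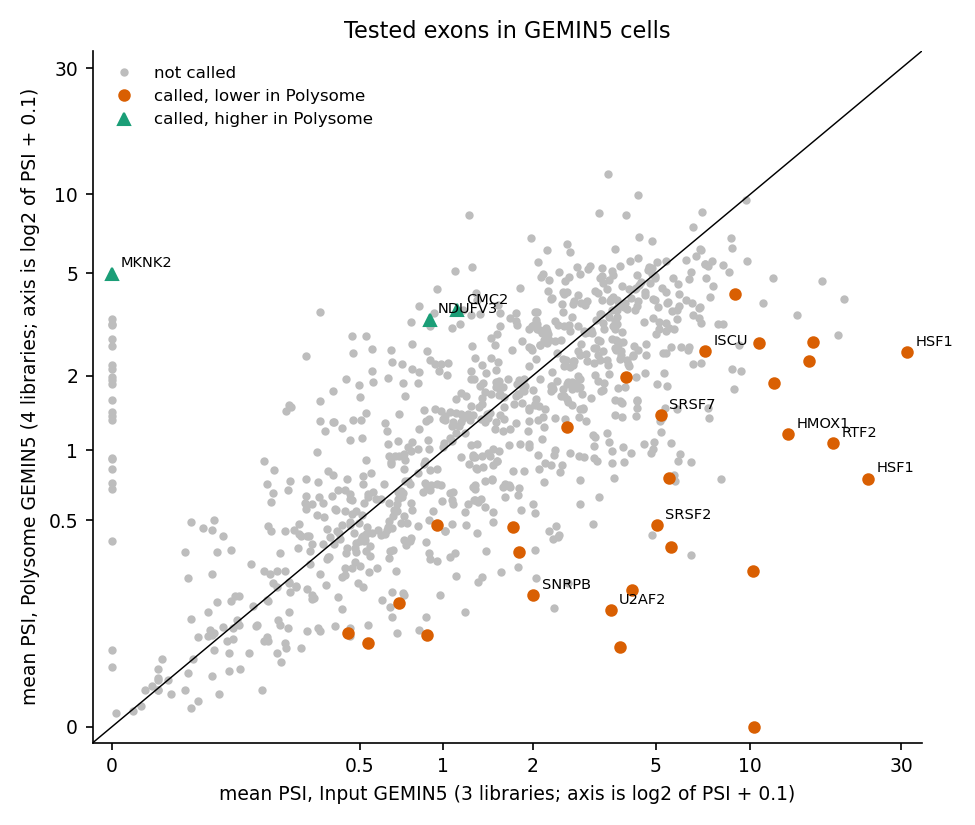
Mean PSI in Polysome GEMIN5 (4 libraries) against Input GEMIN5 (3 libraries) for the 925 tested exons, on log2(PSI + 0.1) axes with a line of equality. The 29 exons called lower in polysomes lie to the right of the line and the 3 called higher (MKNK2, CMC2, NDUFV3) to its left.

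Genes of the splicing machinery gave 4 of the 29 lower exons. The list of 92 splicing regulator genes held 52 rarely included exons in 28 genes, of which 21 were tested, 4 were lower in polysomes and 0 were higher, where the background is 1.86 and 2.8%. The log2 odds ratio was below 0 in 20 of the 21, with a median of -1.53, beside 561 of all 925 tested exons with a median of -0.27. Of the 21, 2 reached the read minimum only with the Input GEMIN5 reads. Without them 4 of 19 were lower, 18 of 19 had a ratio below 0 and the median was -1.39. No member was higher under edgeR. The gene list was chosen with earlier results of these data known, and the choice of exons near the floor bears on these counts too. Nothing is therefore read from them about splicing regulators. Of all 52 exons, tested or not, 15 have a known frame and 13 of these hold an in-frame stop, beside 69.0% of all rarely included exons of known frame. Among the 4 called exons only that of SNRPB has a known frame. The 4 called exons, in SNRPB, SRSF2, SRSF7 and U2AF2, are given with every library, and SNRPB and U2AF2 were picked after their values were seen.

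The SNRPB exon, in the NMD class, had a PSI of 1.85, 2.41 and 1.77 in Input GEMIN5 and of 0.20, 0.26, 0.21 and 0.18 in Polysome GEMIN5. In the controls it had 0.15, 0.22, 0.29 and 0.27 in Input and 0.15, 0.07, 0.17 and 0.10 in polysomes. The Input GEMIN5 libraries alone are high, and they overlap no other group. This exon rests on 2971 to 5263 reads in each library of the Input groups. Polysomes were lower than Input in GEMIN5 cells by a log2 odds ratio of -3.28 (SE 0.28, edgeR adjusted p = 3.61e-06).

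The SRSF2 exon (104 bases, chr17:76735772-76735875, minus strand) is in the NMD class of a gene whose SR protein promotes exon recognition. It had a PSI of 3.10, 7.20 and 4.86 in Input GEMIN5 and of 0.38, 0.42, 0.46 and 0.64 in Polysome GEMIN5. The control values were 0.89, 0.90, 0.92 and 1.26 in Input and 0.35, 0.48, 0.67 and 0.49 in polysomes. Both polysome groups lie under both Input groups, and the Input GEMIN5 libraries stand above all others. The log2 odds ratio in GEMIN5 cells was -3.44 (SE 0.34, edgeR adjusted p = 1.93e-05).

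SRSF7 encodes another SR protein, and its exon (107 bases, chr2:38749240-38749346, minus strand) shares a splice site with annotated exons. It had a PSI of 3.92, 4.62 and 7.08 in Input GEMIN5 and of 1.36, 1.36, 0.94 and 1.89 in Polysome GEMIN5, beside 1.04, 1.53, 1.49 and 1.87 in Input control and 1.45, 0.95, 0.97 and 0.91 in Polysome control. Only the Input GEMIN5 libraries are high, and the other 3 groups overlap. The log2 odds ratio was -1.99 (SE 0.32, edgeR adjusted p = 0.00127).

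U2AF2 encodes the large subunit of the factor that binds the polypyrimidine tract before 3′ splice sites. Its exon (60 bases, chr19:55661771-55661830, plus strand) had a PSI of 4.08, 5.13 and 1.54 in Input GEMIN5 and of 0.20, 0.43, 0.07 and 0 in Polysome GEMIN5. It had 0.36, 0.51, 0.89 and 0.64 in Input control, and 0.13, 0, 0.31 and 0 in Polysome control. Input GEMIN5 is the highest group without overlap, but on 33 to 51 reads per library against 294 to 673 in Polysome GEMIN5. The log2 odds ratio was -4.40 (SE 1.08, edgeR adjusted p = 0.0237), and the call was lost without any one of the 3 Input GEMIN5 libraries.

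Exons of other regulators did not pass the test. The TRA2B exon, whose stop is printed above, had a PSI of 0, 9.43 and 10.0 in Input GEMIN5 on 27 to 33 reads, and of 0.62, 2.00, 0.96 and 0 in Polysome GEMIN5 (edgeR adjusted p = 0.107). The LUC7L exon had 11.7, 35.1 and 10.3 in Input GEMIN5 on 16 to 23 reads, and 1.96, 5.6, 1.64 and 2.32 in Polysome GEMIN5 (edgeR adjusted p = 0.0560). In both exons the Input GEMIN5 libraries differ widely among themselves. The other tested exons that the rule named from this list, in RBM39, HNRNPC, LUC7L3 (a pair of exons), TIA1, TIAL1 and SRSF5, all RNA-binding proteins, had group means between 1.41 and 5.65 in Input GEMIN5 and between 0.473 and 3.58 in Polysome GEMIN5, and none was called. The SMN complex, to which GEMIN5 belongs, held 4 rarely included exons in 3 of its 10 genes. The one tested, in GEMIN6, had mean PSI values of 3.26 in Input GEMIN5 and 4.21 in Polysome GEMIN5 and was not called (edgeR adjusted p = 0.607).

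**Figure D4:**
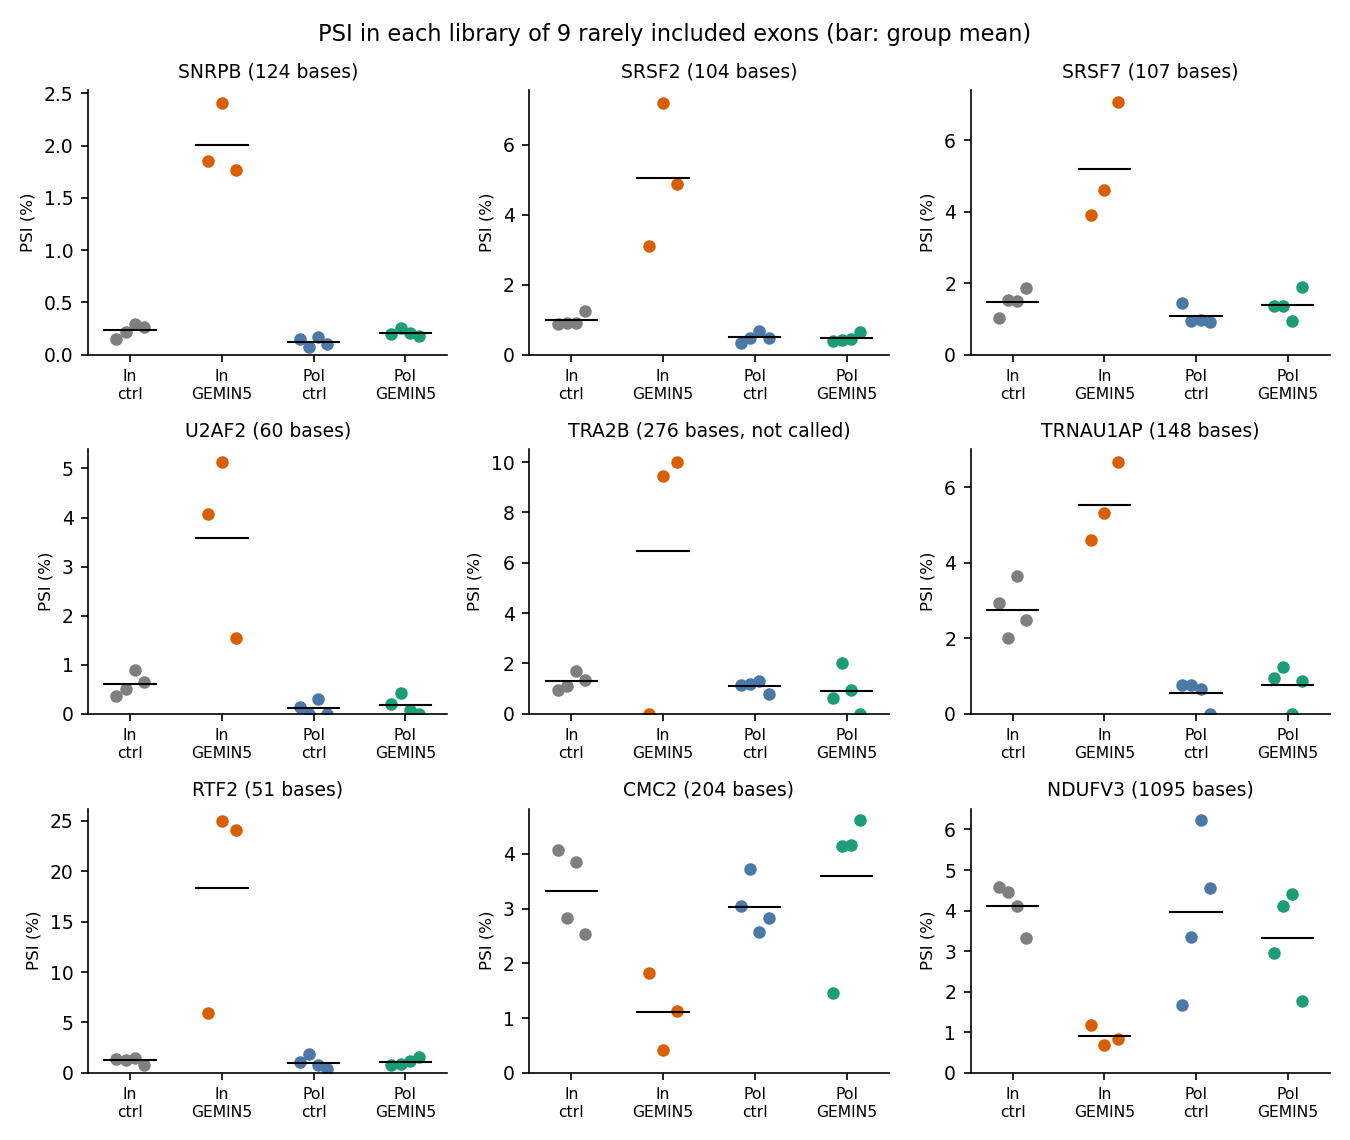
PSI in percent of 9 exons in each library, with a bar for the mean of each group (In, Input; Pol, Polysome; ctrl, control). SNRPB, SRSF2, SRSF7, U2AF2, TRNAU1AP and RTF2 are high in Input GEMIN5, CMC2 and NDUFV3 are low there, and TRA2B, where 1 Input GEMIN5 library is at 0, was not called.

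Among the 201 tested exons with an in-frame stop, 11 were lower in polysomes of GEMIN5 cells, 1 was higher, and 148 had a log2 odds ratio below 0, with a median of -0.56. The background over all 17616 events was 1.86% lower and 2.8% higher. Of all 925 tested exons, 29 were lower, 3 were higher and 561 had a ratio below 0, with a median of -0.27. The 53 tested exons of known frame with no stop and a length divisible by 3 gave 0 lower and 1 higher by edgeR, with a median of -0.19. The 55 with no stop and another length gave 1 lower and 0 higher, with a median of -0.31. By annotation, 11 of 170 tested NMD-class exons were lower and 1 higher (median -0.59), while 0 of 135 coding exons were lower and 1 higher (median -0.14). Of the 213 tested exons absent from the annotation, 7 were lower (median -0.16). Of the lower exons with a stop, 4 reached the read minimum only with the Input GEMIN5 reads, and likewise 4 of those in the NMD class. Without such exons, 7 of 168 tested exons with a stop were lower (median -0.47) and 7 of 136 in the NMD class (median -0.49). Among the lower exons with a stop, those of HSF1 (137 bases), FDFT1, POLR2C and RHNO1, all in the NMD class, were seen from the upstream side. In Input GEMIN5 they had 39, 31, 16 and 18 upstream junction reads and 0 downstream. Such reads do not show that the whole exon was included. The other lower exons with a stop had reads at both junctions there. Differences between these subsets were not tested, and nothing is read from these counts about stops or NMD.

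MRPL37 and TRNAU1AP, whose stops are printed above, are among the 11 lower exons with a stop. MRPL37 had a PSI of 0.41, 1.28 and 0.95 in Input GEMIN5 and of 0.04, 0.13, 0.14 and 0.18 in Polysome GEMIN5 (log2 odds ratio -2.86, edgeR adjusted p = 0.0117). TRNAU1AP had 4.60, 5.31 and 6.67 in Input GEMIN5 and 0.96, 1.23, 0 and 0.88 in Polysome GEMIN5 (-2.65, edgeR adjusted p = 0.0169). Neither pair of ranges overlaps, and in both exons the Input libraries are the higher ones. Both calls were lost without the second or the third Input GEMIN5 library.

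ISCU, a scaffold of iron-sulfur cluster assembly, differs from the exons above in its Input values. Its exon (96 bases, chr12:108564060-108564155, plus strand) is partly coding, holds a stop at base 25 and lies just inside the rule, with a mean control PSI of 4.91. It had a PSI of 7.16, 7.39 and 7.06 in Input GEMIN5 and of 2.73, 2.18, 2.06 and 3.0 in Polysome GEMIN5 (log2 odds ratio -1.50, SE 0.35, edgeR adjusted p = 0.0185). In the controls it had 7.56, 5.97, 7.94 and 9.38 in Input and 2.48, 1.62, 3.62 and 0.69 in polysomes. Both polysome groups are thus under both Input groups, and the 2 Input groups overlap. The call in GEMIN5 cells was lost without any one of the 3 Input GEMIN5 libraries or without the second Polysome GEMIN5 library. The exon of COMMD6, a copper metabolism gene domain protein, has its group means in the same order as ISCU. It had mean PSI values of 5.61 in Input GEMIN5 and 2.60 in Polysome GEMIN5 (edgeR adjusted p = 0.0664), and 6.31 and 1.95 in the controls. PFDN2, a prefoldin chaperone subunit, is highest in Input GEMIN5, where no library overlaps Input control. It had 1.71 and 0.465 (log2 odds ratio -1.93, edgeR adjusted p = 0.00606), and 0.945 and 0.168 in the controls.

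Several called exons with large PSI differences were seen from only 1 side. An exon joined on both sides gives reads at its upstream and its downstream junction. Among tested exons, 99 had at least 90% of their inclusion junction reads at 1 junction, 52 at the upstream and 47 at the downstream one. All 12 called exons of this kind had them upstream, 11 of them lower in polysomes and 1 higher. Of the other 826 tested exons, 20 were called, 18 lower and 2 higher. The background over all events was 4.65% called, 1.86% lower and 2.8% higher. Differences between these sets were not tested. Among them are exons of HSF1 (a pair of exons), RTF2, FDFT1, HMOX1, TMBIM4, MKNK2, POLR2C, ERGIC3, GNAS and RHNO1. For exons with at least 10 inclusion junction reads, such one-sided reads occurred in 12.3% of the rarely included, 12.5% of the alternative and 5.22% of the nearly constitutive exons. Upstream reads alone do not show whether the exon was joined to the exon after it, so PSI of these 12 exons counts use of the upstream junction.

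RTF2, a replication termination factor homolog, has one of these exons. The exon (51 bases, chr20:56470701-56470751, plus strand) had a PSI of 5.98, 25 and 24.1 in Input GEMIN5 and of 0.78, 0.84, 1.12 and 1.55 in Polysome GEMIN5. The Input control values were 1.41, 1.27, 1.49 and 0.80, and those of Polysome control 1.03, 1.86, 0.76 and 0.34. Input GEMIN5 is above the other 3 groups, which overlap, and in it 42 reads crossed the upstream junction, 0 the downstream junction and 109 skipped the exon. The log2 odds ratio in GEMIN5 cells was -4.13 (SE 0.61, edgeR adjusted p = 0.000724).

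HSF1, the main transcription factor of the heat shock response, has 2 such exons. The first (137 bases, chr8:144292483-144292619) had a PSI of 40.0, 20.8 and 33.3 in Input GEMIN5 on 26 to 29 reads, and of 3.31, 0.48, 1.52 and 4.58 in Polysome GEMIN5 (log2 odds ratio -4.13, SE 0.66, edgeR adjusted p = 0.00115). The other (113 bases, chr8:144307588-144307700) had 27.6, 10.98 and 32.2, and 0, 0.62, 0.85 and 1.57 (log2 odds ratio -5.10, SE 0.86, edgeR adjusted p = 0.00200). Neither pair of ranges overlaps, and no downstream junction read was seen for either exon in Input GEMIN5, beside 39 and 19 upstream reads. HMOX1, the heme-degrading enzyme, had 8.06, 12.6 and 19.1 in Input GEMIN5 and 2.08, 1.0, 0.27 and 1.30 in Polysome GEMIN5, with 24 upstream and 0 downstream reads in Input GEMIN5 (log2 odds ratio -3.93, edgeR adjusted p = 0.00392). GNAS, a G protein alpha subunit gene, had 3.41, 5.11 and 4.05 against 0.23, 0.06, 0.12 and 0.50 (-3.99, edgeR adjusted p = 0.00289).

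**Figure D5:**
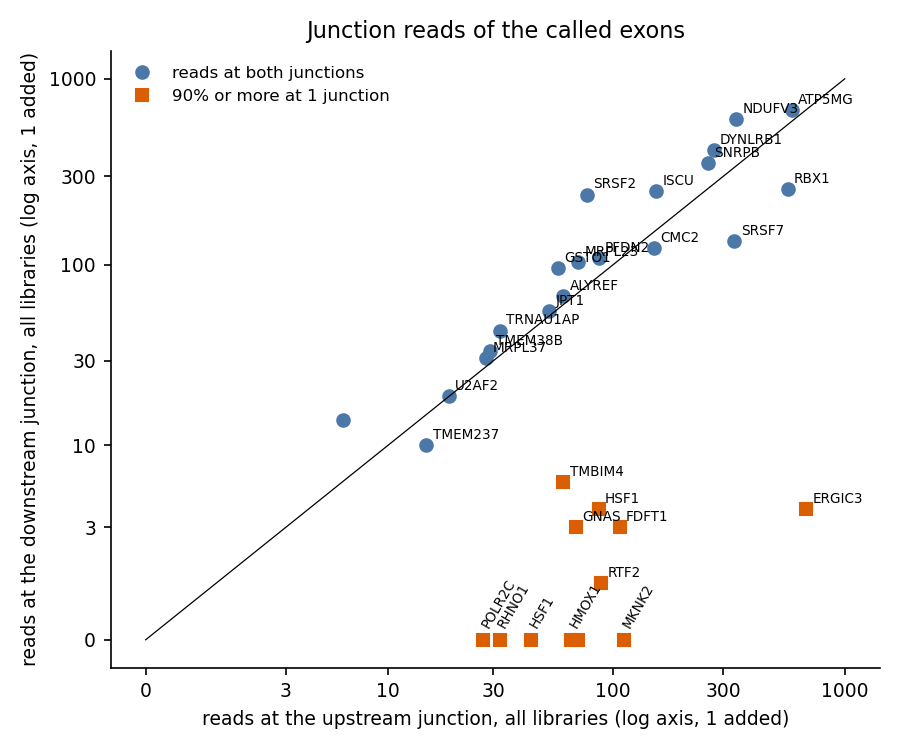
Reads at the downstream junction against reads at the upstream junction, summed over all 15 libraries, for the 32 called exons (log axes, 1 added, line of equality; most are named). Squares mark the 12 exons with at least 90% of their reads at the upstream junction, which lie far under the line.

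The other lower exons are given by their means. FDFT1, the squalene synthase gene, and TMBIM4, an anti-apoptotic membrane protein, had mean PSI values of 15.3 and 11.9 in Input GEMIN5 and 2.29 and 1.88 in Polysome GEMIN5. The exons of GSTO1 (a glutathione transferase), MRPL23 (a mitochondrial ribosomal protein), RBX1 (a cullin ligase subunit), ALYREF (an mRNA export adaptor), ATP5MG (an ATP synthase subunit), JPT1 and ERGIC3 had Input GEMIN5 means between 0.453 and 4.03 and Polysome GEMIN5 means between 0.108 and 1.97. DYNLRB1 (a dynein light chain) had 8.99 and 4.16, TMEM38B (an ion channel of the endoplasmic reticulum) 10.7 and 2.68, and TMEM237 (a ciliary membrane protein) 10.2 and 0.285. POLR2C, an RNA polymerase II subunit, and RHNO1, a protein of the DNA damage response, had 3.85 and 5.59 in Input GEMIN5, and 0.100 and 0.375 in Polysome GEMIN5. Those of these exons that the naming rule did not cover were named after their values were seen. Of the exons in this paragraph, the calls in GSTO1, MRPL23 and POLR2C were kept without each of the 7 libraries, and each of the others was lost without at least 1 of them.

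The 3 exons that were higher in polysomes are low in Input GEMIN5. NDUFV3, a subunit of respiratory complex I, has a coding exon (1095 bases, chr21:42903182-42904276, plus strand). It had a PSI of 1.17, 0.69 and 0.83 in Input GEMIN5 and of 2.95, 4.12, 4.40 and 1.78 in Polysome GEMIN5, beside 4.59, 4.45, 4.11 and 3.32 in Input control and 1.67, 3.36, 6.24 and 4.56 in Polysome control. Input GEMIN5 is below the other 3 groups, which overlap (log2 odds ratio 1.85, SE 0.43, edgeR adjusted p = 0.0176). The CMC2 exon had 1.82, 0.41 and 1.12 in Input GEMIN5 and 1.46, 4.14, 4.17 and 4.62 in Polysome GEMIN5 (log2 odds ratio 1.70, SE 0.45, edgeR adjusted p = 0.0371). These ranges overlap because the first polysome library lies under 1 Input library. The NDUFV3 and CMC2 calls were lost without the second or the third library of Input GEMIN5 or of Polysome GEMIN5, and that of CMC2 also without the fourth Polysome GEMIN5 library. MKNK2, a kinase downstream of MAP kinases, had 0 in all 3 Input GEMIN5 libraries and 5.57, 3.33, 8.70 and 2.33 in Polysome GEMIN5. Its 489 reads in Input GEMIN5 allow a PSI of up to 0.613%, and the Polysome GEMIN5 mean of 4.98 is 8.12 times that limit. The ratio takes no account of the spread between the polysome libraries. The exon was called (edgeR adjusted p = 0.0106), again from upstream junction reads alone.

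Exons with the most reads show how low inclusion can be measured. The RACK1 exon (a ribosomal scaffold protein, 112 bases, chr5:181240216-181240327, minus strand) has a mean of 9648 reads per library. Its PSI was 0.18, 0.31 and 0.22 in Input GEMIN5 and 0.09, 0.15, 0.13 and 0.20 in Polysome GEMIN5, and the ranges overlap (edgeR adjusted p = 0.212). An exon of ELOB, an elongin subunit, had mean PSI values of 0.213 in Input GEMIN5 and 0.278 in Polysome GEMIN5 (edgeR adjusted p = 0.600). One exon of ATP5MG was the only one of these 8 most read exons that was called, with 0.79, 1.04 and 1.01 in Input GEMIN5 and 0.47, 0.51, 0.39 and 0.54 in Polysome GEMIN5 (log2 odds ratio -1.0, SE 0.22, edgeR adjusted p = 0.0125), a call lost without the second or the third Input GEMIN5 library. The others, in ATP5MG, UQCR11, COX7B (a pair of exons) and NDUFA11, all genes of oxidative phosphorylation subunits, had means between 0.0800 and 1.27 in Input GEMIN5.

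At the rule's threshold, BBIP1, BCL2L13 and ISCU were just inside with mean control PSI values of 4.96, 4.94 and 4.91. TPM1, CARD8 and RWDD3 were just outside with 5.01, 5.03 and 5.07. In the GEMIN5 libraries BBIP1 had group means of 2.17 in Input and 2.77 in polysomes, and TPM1 had 4.63 and 3.53.

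The contrasts that use the control libraries are given as descriptions, because those libraries chose the exons. For GEMIN5 against control in Input, edgeR called 21 of the 925 exons, 20 higher and 1 lower, beside a background of 3.26% of events (1.15% higher and 2.12% lower). The lower one is NDUFV3. Without the second Input GEMIN5 library 8 were called and without the third 10, beside backgrounds of 1.41 and 1.88%. For GEMIN5 against control in polysomes it called 0, as it did among all events (background 0%), with 32 exons at an unadjusted p under 0.05, 0 by limma on log2 odds and 1 with plain junction reads in place of corrected reads. For polysomes against Input in control cells it called 3 exons, all lower (ISCU, COMMD6 and PFDN2), beside a background of 0.176% (0.0624% higher and 0.114% lower), and without any one of the 8 control libraries the number was 0 or 1. Ranges of the 2 groups did not overlap in 16.4, 2.82 and 4.79% of all events in these 3 contrasts. The exons with the largest differences between the polysome groups and no overlap include CIRBP (a cold-inducible RNA-binding protein), with 12.0 in Polysome GEMIN5 and 3.52 in Polysome control, and PTRH2 (a peptidyl-tRNA hydrolase), with 5.11 and 1.36.

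Host genes were tested on their own counts. The minimum of 10 reads in all 15 libraries keeps genes that are well covered in Input GEMIN5, where exons had the fewest reads, so the share of hosts called higher in Input is a description and nothing is read from it. Of 1807 host genes with enough counts, edgeR called 1170 (64.7%) between GEMIN5 and control in Input, 837 higher and 333 lower, where the background was 51.5% of 12197 genes (27.1% higher and 24.3% lower). The median log2 fold change of the hosts was 0.26 and that of all genes -0.01. Without the second Input GEMIN5 library, 976 hosts were called, 512 higher and 464 lower, and their median was 0.00. All genes shifted in that fit too: 46.8% of 12311 were called, 2105 higher and 3662 lower, with a median of -0.24. In polysomes 2 host genes were called (0.111%), both higher, where the background was 0.402% (0.082% higher and 0.32% lower), with 70 at an unadjusted p under 0.05. Without the first Polysome control library 16 were called, 3 higher and 13 lower, beside a background of 0.741%, and without other single polysome libraries 0 or 1. Fewer copies per cell and fewer cells expressing a gene cannot be told apart in these bulk libraries.

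Hosts of the called splicing factor exons did not move together. SNRPB counts rose in Input GEMIN5 from 1153 ± 63.1 to 2134 ± 428 CPM (counts scaled to library size with TMM, SD, n = 4 and 3), a log2 fold change of 0.89 (edgeR adjusted p = 0.000140). U2AF2 fell from 262 ± 16.5 to 101 ± 3.56 CPM, a log2 fold change of -1.37 (edgeR adjusted p = 7.79e-07). SRSF2 fell from 352 ± 33.1 to 219 ± 20.1 CPM (log2 fold change -0.69, edgeR adjusted p = 0.00761). SRSF7 had 438 ± 46.4 and 402 ± 30.8 CPM (log2 fold change -0.12, edgeR adjusted p = 0.626). In polysomes none of the 4 was called between GEMIN5 and control, with log2 fold changes between -0.18 and 0.00 (edgeR adjusted p of at least 0.947). HMOX1, whose Input change was not called (log2 fold change 0.26, edgeR adjusted p = 0.218), rose in polysomes by a log2 fold change of 0.93 (edgeR adjusted p = 0.00921), a call lost without the first or the second Polysome GEMIN5 library.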

How the data were processed

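Libraries were made from polyadenylated RNA with a stranded kit, per the labels' protocols. PSI was deposited by the authors as a percent per event and library, with columns arranged as in vast-tools output (hg38, per the file headers). The deposited quality column, a text field of the unit other, gives corrected inclusion and exclusion read numbers, which are not plain reads; the share of inclusion reads lies within 0.05 PSI points of the deposited PSI for exon events. The splicing tool's version is not given in the sources used here. For genes, the authors deposited raw counts as whole numbers. STAR 2.7.10a, featureCounts and GRCh38/hg38 are named in the submitters' processing notes; how strand and options were set is not given in the sources used here, so overlapping or antisense genes and near-identical copies are uncertain.

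Exons were matched to GENCODE v29 by both ends, and older symbols were replaced for 191 of them. A host gene ID was found for 3541 of the 3588, and 47 had none. Sequences came from the transcripts of that annotation, since no genome was used. A frame was taken as known where all coding parts that end at the upstream junction agree. Inclusion and exclusion reads were rounded and tested for 17616 events in 1 edgeR fit (edgeR 4.0.16, R 4.3.3) over all 15 libraries, with a term per library and an inclusion term per group, so an effect is a log2 ratio of inclusion odds. Genes were kept by filterByExpr, scaled by TMM and tested likewise. Calls had a Benjamini-Hochberg adjusted p under 0.05 over all events or genes. limma 3.58.1 on log2 odds (0.5 added) and DESeq2 1.42.0 were alternatives. Summaries used Python 3.11.15, pandas 2.3.3, SciPy 1.17.1 and matplotlib 3.10.9. A limit for a group with no inclusion read is 3 reads over the group, and limits and intervals cover counting error only.

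On simulated data for polysomes against Input in GEMIN5 cells, over 17616 events, the odds in Polysome GEMIN5 were raised 2, 4 and 8-fold. These increases were recovered in 0 of 27, 4 of 38 and 21 of 35 rarely included exons, with 0 unchanged events among 55 calls. Decreases, the direction of most calls, were not simulated. All events were drawn with the 1 spread estimated from these data and with 1 PSI per event before the increase. The 0 unchanged calls therefore do not show how many of the real calls are false. Same-numbered libraries were not treated as pairs. Correlations of their deviations from the group means lay between -0.562 and 0.493 for genes over 21 same-numbered pairs. Differently numbered pairs were not computed, so these values cannot show whether libraries are paired.

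The members and gene lists were chosen with earlier results of these data known. Named exons were the called ones with the largest PSI difference (up to 8 per direction), the 10 with the highest PSI in GEMIN5 libraries, the 8 with the most reads and inclusion in every library, up to 12 in splicing regulator genes, 3 on each side of the threshold, and up to 6 per described contrast; other called exons were named after their values were seen, and 2 called exons are counted but not reported singly here. Of the printed sequences, MOB1A and LUC7L met the rule for sequences and the others were chosen after their values were seen.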

Additional observations from a re-analysis of the deposited data

Results flagged for a closer look

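Among the 66 named exons, 198 groups of 4 libraries were looked at for a single library far from the other 3, and 20 such libraries were found. The limit used flags about 1 in 20 groups by chance where values are normally spread. Low PSI values from few reads are not, so no excess is read from the 20. In Input control, SLC37A4 had a PSI of 12.2 in library 3 (others 3.43 to 4.45), TMEM39B 10.0 in library 3 (5.45 to 5.88), RWDD3 8.93 in library 4 (3.81 to 4.43), SRSF2 1.26 in library 4 (0.89 to 0.92), GNAS 0.73 in library 4 (0.25 to 0.29) and the 57-base exon of LUC7L 1.43 in library 1 (0.77 to 0.83).

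In Polysome control, ZNF226 had 10.0 in library 2 (others 2.13 to 2.7), NIPSNAP1 2.56 in library 1 (1.41 to 1.45), SRSF7 1.45 in library 1 (0.91 to 0.97) and ATP5MG 0.49 in library 1 (0.35 to 0.37). The 57-base exon of LUC7L had 2.67 in library 3 and TMEM237 had 2.04 in library 4, with 0 in their other 3 libraries. PFDN2 had 0.26 in library 4 (0.13 to 0.15), MRPL23 0.16 in library 3 (0.07 to 0.08) and TRNAU1AP 0 in library 4 (0.66 to 0.76). In Polysome GEMIN5, DPH7 had 12.2 in library 4 (0 to 2.04), MOB1A 9.64 in library 4 (2.41 to 3.35), ERGIC3 2.67 in library 4 (1.68 to 1.79), CMC2 1.46 in library 1 (4.14 to 4.62) and NDUFA11 0.73 in library 1 (0.98 to 1.03).

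The GEMIN5 effect in polysomes differed from that in Input for 2 exons, by the interaction term of the edgeR fit, where the background was 0.312% of 17616 events. The difference of the log2 odds ratios, polysomes minus Input, was -2.48 (SE 0.49, edgeR adjusted p = 0.0438) for SRSF2 and -2.31 (SE 0.46, edgeR adjusted p = 0.0463) for SNRPB. In SNRPB, every Input GEMIN5 library lay above every Input control library, and the polysome ranges were 0.07 to 0.17 in control and 0.18 to 0.26 in GEMIN5 cells. These values use the control libraries that chose the exons and are a description.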

How the results depend on the processing

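Of the settings run, 70 values were counted as kept, 41 as moved and 1 as reversed. Kept values could still fall: exons called for GEMIN5 against control in Input went from 21 to 14 with the replicate block. Others among the 70 are counts of 0 that stayed at 0 and had no direction to keep. For polysomes against Input in GEMIN5 cells, 32 exons were called, and the number was 54 by limma on log2 odds, 16 with no filter on low values, 19 with only the 2 groups in the fit, 82 with plain junction reads (added after seeing the data), and 21 each with a PSI filter, with exon events only, with a control PSI below 2 and with the replicate block. In the same order, the shares of all events called in each fit were 5.3, 0.803, 2.58 and 11.1%, then 6.06, 2.34, 4.65 and 3.12%. Leaving out 1 library gave 13 to 30, beside 2.27 to 4.26% of all events. Of the called exons, 4 (RTF2, SRSF7, SRSF2 and GNAS) were kept in every setting. For GEMIN5 against control in Input (21), limma called 51, no filter 12 and plain junction reads 70, and leaving out 1 library gave 8 to 18. The shares of all events called were 4.08, 0.776 and 10.9%, and 1.41 to 2.4% in leave-outs. In polysomes (0) plain junction reads called 1, and leave-outs gave 0 to 0. For polysomes against Input in control cells (3) the number was 0 with no filter, with exon events only, with the replicate block and with only the 2 groups, 1 with a control PSI below 2, 5 with plain junction reads, and 0 to 1 in leave-outs. Host genes called in polysomes (2) were 1 with the replicate block, 1 for hosts of exons with a control PSI below 2, and 0 to 16 in leave-outs, where the direction reversed without Polysome control replicate 1 (16 called, 13 lower). Host genes called in Input were 976 to 1155 in leave-outs, and exons below a PSI of 5 were 3454 to 3466 in Input GEMIN5 and 3533 to 3543 in Polysome GEMIN5. The cause was not tested in any of these. Correlations of same-numbered deviations were -0.0384 to 0.0322 over events, and whether replicate numbers pair the libraries is not settled by them. Depth limits the low PSI values: 2663 of 3588 exons had too few inclusion reads to be tested.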
